A study of Mus musculus with 70 samples.

Results

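Glucocorticoid-induced genes are transcripts that cells make more of when the glucocorticoid receptor is occupied by its hormone, which in mice is corticosterone. The 10 genes described here, Fkbp5, Tsc22d3, Sgk1, Zbtb16, Ddit4, Errfi1, Cdkn1a, Hif3a, Txnip and Fam107a, were named as a set of such targets, and all 10 were found by symbol among the 14260 genes measured. No hormone level was used here, so the label rests on what is known of these genes. The set and the other gene lists used below were chosen with earlier results of these data known.

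Expression was measured by poly-A RNA sequencing of the hippocampus of 1 brain hemisphere per mouse, in 69 animals represented by 70 libraries. TG mice carried the APP23 transgene, a mutant human amyloid precursor protein driven by the neuronal Thy1 promoter, Tg(Thy1-APP)3Somm, on a B6 background, and NTG mice were littermates without it. ALF mice ate ad libitum, and TRF mice had food for 6 h of the active phase, from zeitgeber time (ZT) 15 to ZT21. Lights went on at ZT0 and off at ZT12. The groups held 16 NTG animals on ALF, 16 NTG animals on TRF, 19 TG animals on ALF and 18 TG animals on TRF, killed under isoflurane at ZT0 (25 animals), ZT6 (11), ZT12 (23) or ZT18 (10). All were housed singly and were 10 to 13 months old at tissue collection, and TRF had begun at 6 to 9 months. Some of the animals had earlier been through constant darkness and a phase advance of the light cycle, and the labels do not say which. Both sexes were used, and the labels do not give the sex of an animal; with the Xist level in the model, the member counts given for feeding and for ZT12 against ZT0 were the same. At ZT12, TRF mice were therefore 15 h past the end of their last meal window and 3 h ahead of the next.

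Corticosterone in nocturnal rodents rises towards the onset of darkness and falls by its end, and it also rises in anticipation of a meal that comes at a fixed hour. The bound receptor moves to the nucleus and activates genes through palindromic DNA elements near or within them. Fkbp5 encodes a chaperone partner that lowers the receptor's affinity for hormone and so closes a feedback loop. Tsc22d3 (GILZ) and Zbtb16 (PLZF) encode transcriptional regulators, and Hif3a encodes a member of the hypoxia-inducible factor family. Sgk1 is the serum- and glucocorticoid-regulated kinase, Ddit4 (REDD1) restrains mTOR complex signalling, Errfi1 (MIG-6) restrains the epidermal growth factor receptor, and Cdkn1a is a cyclin-dependent kinase inhibitor that p53 also induces. Txnip binds thioredoxin and limits glucose uptake, and Fam107a (DRR1) is a stress-responsive actin-binding protein enriched in astrocytes. Several of these genes also respond to other signals, such as neuronal activity, low oxygen or nutrient state.

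Sequences upstream of the members were examined first, because the canonical glucocorticoid response element is a palindrome, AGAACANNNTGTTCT, made of the hexamer AGAACA and its reverse complement 3 bases apart. RefSeq promoters of GRCm38.p6, each covering 250 bases before to 50 bases after an annotated start site, were found for 9 of the 10 members, with 20 promoters in all. Zbtb16 had no entry. The full palindrome was found, on both strands searched, in 1 of 14167 promoters of measured genes, 0.00706%, and that promoter belonged to Sgk1. The sequence below is this Sgk1 promoter at chr10:21993640-21993939 (plus strand), with the palindrome in capitals and, near its start, an E-box CACGTG that overlaps another copy of the hexamer, also in capitals.

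Sgk1: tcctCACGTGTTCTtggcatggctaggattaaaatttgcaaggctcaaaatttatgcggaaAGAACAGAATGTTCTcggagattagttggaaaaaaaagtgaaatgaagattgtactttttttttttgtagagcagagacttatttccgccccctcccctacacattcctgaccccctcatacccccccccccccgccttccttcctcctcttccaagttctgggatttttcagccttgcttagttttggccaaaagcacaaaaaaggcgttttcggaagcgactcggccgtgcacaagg

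The palindrome read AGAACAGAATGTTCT and began at position -189 from the start site. The hexamer alone, which can occur within the palindrome, was present in at least 1 promoter of 14.8% of the measured genes with an entry, and 3 of the 9 matched members held it: Sgk1, Fam107a and Tsc22d3. Each of these had several promoters, not all with the hexamer. The 9 members had 20 promoters and the 11019 measured genes with an entry 14167, so members had more chances of a match. By promoter, 6 of the 20 held it, nearly identical Fam107a windows included, against 12.5% of all promoters. The Fam107a promoter at chr14:8309730-8310029 (minus strand) and the Tsc22d3 promoter at chrX:140600473-140600772 (minus strand) are shown with the hexamer or its complement in capitals.

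Fam107a: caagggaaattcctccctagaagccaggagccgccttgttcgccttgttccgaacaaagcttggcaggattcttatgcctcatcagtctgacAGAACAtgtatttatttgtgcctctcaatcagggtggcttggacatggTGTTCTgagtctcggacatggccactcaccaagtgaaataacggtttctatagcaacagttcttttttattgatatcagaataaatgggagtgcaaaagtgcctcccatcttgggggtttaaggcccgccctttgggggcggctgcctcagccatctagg
Tsc22d3: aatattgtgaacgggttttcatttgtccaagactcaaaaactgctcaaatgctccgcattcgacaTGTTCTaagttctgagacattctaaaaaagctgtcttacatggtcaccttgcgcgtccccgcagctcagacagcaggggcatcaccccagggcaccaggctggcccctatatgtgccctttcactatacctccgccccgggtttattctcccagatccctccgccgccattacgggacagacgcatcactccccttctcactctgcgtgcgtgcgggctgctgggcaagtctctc

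Fam107a held 2 copies and Tsc22d3 1. The Fkbp5 promoter at chr17:28486100-28486399 (minus strand) is shown because Fkbp5 was the member whose difference between feeding groups over all times was called under every alternative run. It held no copy of the hexamer in this window but did hold an E-box, the hexamer read by the core clock activators, which was found in 9.55% of promoters.

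Fkbp5: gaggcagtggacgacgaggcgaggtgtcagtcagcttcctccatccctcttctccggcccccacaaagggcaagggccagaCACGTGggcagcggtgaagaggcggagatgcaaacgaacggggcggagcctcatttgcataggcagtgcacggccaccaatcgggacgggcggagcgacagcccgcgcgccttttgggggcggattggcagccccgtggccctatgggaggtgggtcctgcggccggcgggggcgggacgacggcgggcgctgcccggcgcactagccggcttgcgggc

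A match is a description of the letters, and known receptor sites of several members lie in introns or farther upstream, outside this window. The gene bodies in the GENCODE M21 annotation of GRCm38 lie at chr17:28399094-28517527 (Fkbp5), chrX:140539528-140600659 (Tsc22d3), chr10:21882184-21999903 (Sgk1), chr9:48654297-48836222 (Zbtb16), chr10:59949669-59951834 (Ddit4), chr4:150853919-150868892 (Errfi1), chr17:29090976-29100727 (Cdkn1a), chr7:17031507-17062427 (Hif3a), chr3:96557957-96561883 (Txnip) and chr14:8296274-8318023 (Fam107a).

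All values that follow are the authors' normalized counts, read counts per gene divided by a size factor for each library. Per kilobase of exon, the mean level over all animals was highest for Fam107a, at 2366 normalized counts, followed by Ddit4 at 882 and Sgk1 at 854. It was lowest for Hif3a at 58.3 and Cdkn1a at 105, and the remaining members lay between 197 (Fkbp5) and 586 (Tsc22d3). Totals per library, inferred from the step between the deposited values, were 27863261 to 47093814 reads or read pairs. Prox1, the factor that marks dentate granule cells of the hippocampus, was at 885 to 2563 normalized counts in every animal. Ttr, the chief transcript of choroid plexus, ranged from 27.6 to 215418 normalized counts, so the dissections differed in how much of that tissue they held. Differences are log2 fold changes of value plus 1 with their standard errors, from limma models of all 14260 genes, and a gene is said to have risen or fallen at a Benjamini-Hochberg adjusted p under 0.05.

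The genes were first followed over the time of sacrifice. At ZT12, when the lights had just gone off, 7 members had their highest mean. Over the 4 times, 7 of the 10 changed by limma's F test, where 35.6% of all genes did. From ZT0 to ZT12, 7 members rose and none fell, where 13.3% of all genes rose and 12.8% fell, and the median member was 0.32 higher on the log2 scale.

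**Figure D1:**
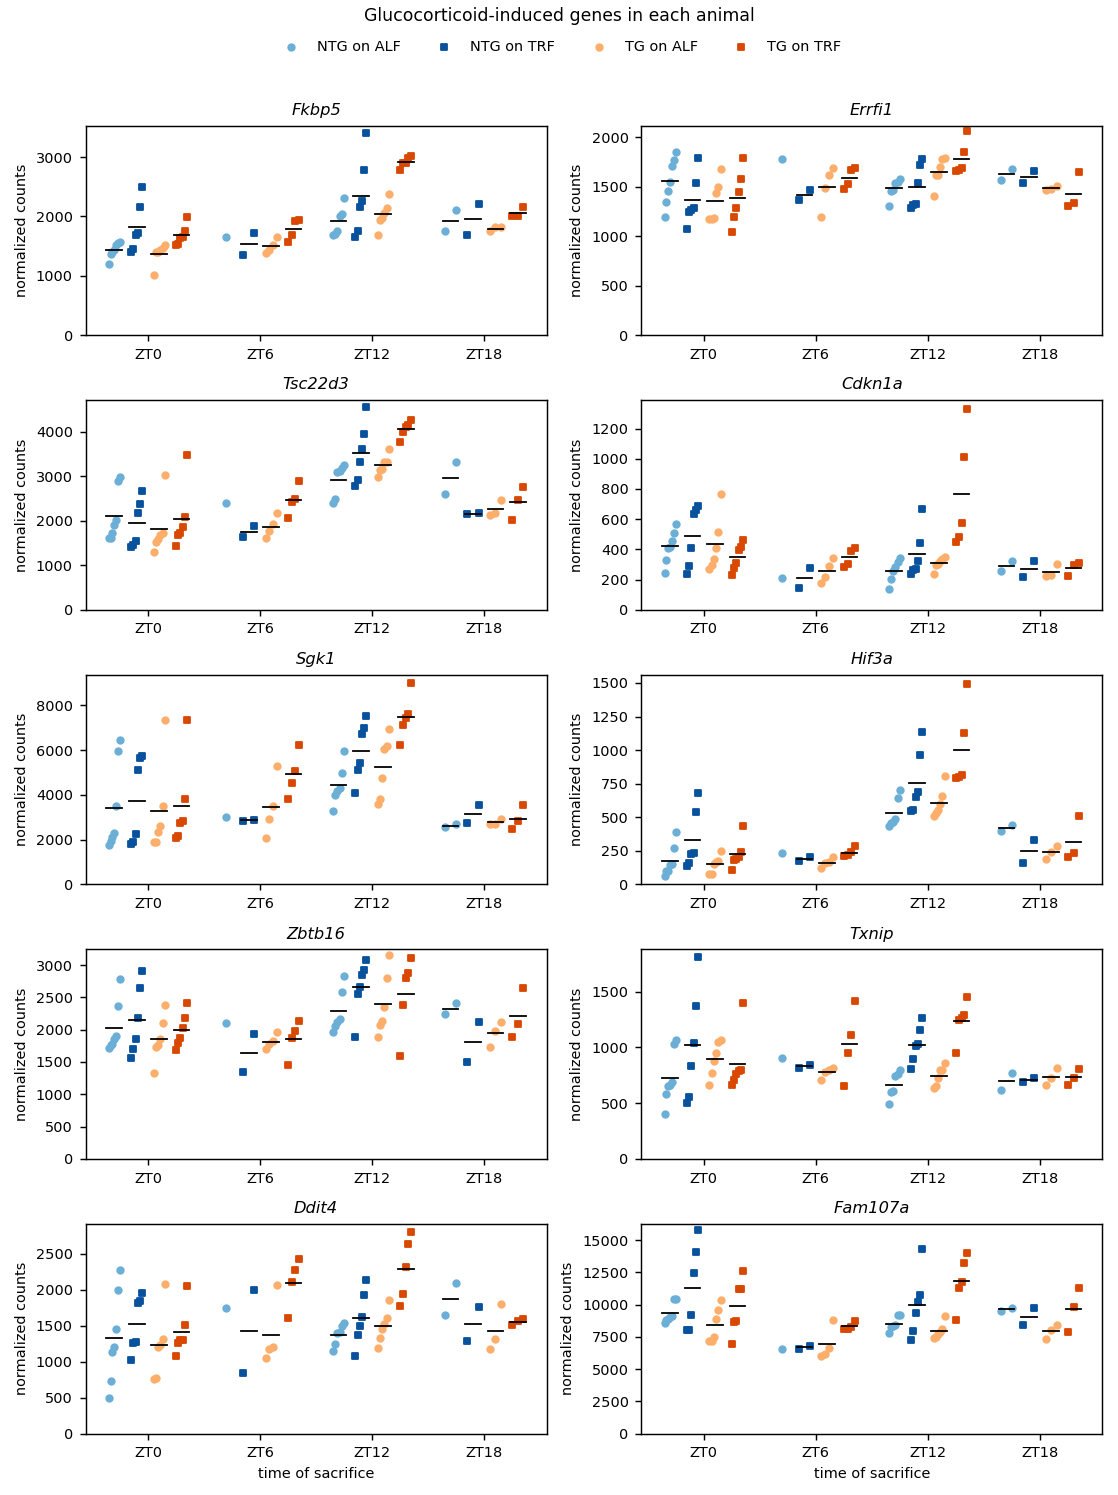
Normalized counts (vertical axis, from 0) of each of the 10 genes in each animal, by time of sacrifice; colour and symbol give the group and short lines the means of groups with more than 1 animal. Hif3a, Tsc22d3, Fkbp5 and Sgk1 are highest at ZT12, where Hif3a averaged 712 against 218 at ZT0.

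Hif3a had the largest change of the set. Its mean was 218 ± 149 normalized counts in the ZT0 animals (SD, n = 25) and 199.5 ± 44.7 in those of ZT6 (n = 11), then 712 ± 259 (n = 23) in those of ZT12 and 299.8 ± 116.6 (n = 10) in those of ZT18. The ZT12 level was 1.89 ± 0.16 (SE) above ZT0 on the log2 scale (adjusted p = 1.5e-13), 1.81 ± 0.22 above ZT6 (2.8e-08) and 1.27 ± 0.22 above ZT18 (3.5e-05). Every ZT12 animal exceeded every ZT0 animal in NTG mice on ALF (as in 0.568% of all genes), TG mice on ALF (1.21%) and TG mice on TRF (1.25%), but not in NTG mice on TRF, whose ZT0 animals reached 678 while the lowest at ZT12 was 543.

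Tsc22d3 averaged 1980 ± 592 normalized counts at ZT0 and 3412 ± 566 at ZT12. It was 0.84 ± 0.08 higher at ZT12 than at ZT0 (adjusted p = 9.7e-12), 0.70 ± 0.11 higher than at ZT6 (1e-05) and 0.50 ± 0.11 higher than at ZT18 (0.0011). The groups overlapped, since single animals at ZT0 reached up to 3480 normalized counts, above several at ZT12.

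Fkbp5 averaged 1570 ± 298 normalized counts in ZT0 animals and 1622 ± 196 in ZT6 animals, against 2274 ± 522 in ZT12 and 1930.4 ± 190.2 in ZT18 animals. The difference from ZT0 to ZT12 was 0.53 ± 0.06 (adjusted p = 3.6e-10) and that from ZT6 was 0.49 ± 0.08 (2e-05). Against ZT18 it was 0.22 ± 0.08, which missed the threshold (0.06). The Fkbp5 mean at ZT18, in the middle of the night, lay between its ZT0 and ZT12 means, with values from 1687 to 2209 normalized counts. ZT18 against ZT0 was not tested.

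Sgk1 was 0.86 ± 0.15 higher at ZT12 than at ZT0 (adjusted p = 3.2e-05) and 0.97 ± 0.20 higher than at ZT18 (0.00036). Its spread at ZT0 was wide, with a mean of 3477 ± 1878 normalized counts, and narrow at ZT18, with 2865 ± 372. The signalling brakes moved less: Errfi1 rose by 0.19 ± 0.05 from ZT0 to ZT12 (adjusted p = 0.0086) and Ddit4 by 0.33 ± 0.12 (0.033). Zbtb16 rose by 0.30 ± 0.08 (0.002) and was also 0.42 ± 0.09 above its ZT6 level (0.0049).

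Cdkn1a, Txnip and Fam107a did not pass the test between ZT0 and ZT12, with differences of -0.12 ± 0.13, 0.09 ± 0.10 and -0.02 ± 0.07. Fam107a did change over the 4 times, because its ZT6 level was low: it averaged 7352 ± 1059 normalized counts at ZT6 and 9468 ± 2120 at ZT12, a difference of 0.36 ± 0.09 (adjusted p = 0.013). Cdkn1a changed over the 4 times as well (adjusted p = 0.01), with means of 421 ± 150 and 410 ± 272 normalized counts in ZT0 and ZT12 animals, and of 276 ± 85.1 and 269.9 ± 44.2 in ZT6 and ZT18 animals. That call was lost by the same F test with the series of animal numbers, described below, in the model (adjusted p = 0.51). Txnip was close to level, with means between 721 ± 64.0 and 905 ± 263 normalized counts.

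Against ZT6, 5 members were higher at ZT12 (1.49% of all genes were), and against ZT18, 3 were (5.65%). All 21 animals of ZT6 and ZT18 carried animal numbers in the 300s, as did 2 at ZT0 and 1 at ZT12. With the number series in the model, 1 member, Hif3a, remained called against ZT6 and 1, again Hif3a, against ZT18. The estimates of the others were about as large with wider errors: against ZT6, Fkbp5 was 0.54 ± 0.15 (adjusted p = 0.056), Tsc22d3 0.69 ± 0.20 (0.079), Zbtb16 0.54 ± 0.18 (0.13) and Fam107a 0.49 ± 0.16 (0.15), and against ZT18, Tsc22d3 was 0.48 ± 0.20 (0.13) and Sgk1 0.99 ± 0.34 (0.067). The ZT0 and ZT12 comparison kept all 7 calls with that term. By the F test over the 4 times, Cdkn1a lost its call with it (adjusted p = 0.51) and Errfi1 gained one (0.039). Endothelial genes fell from ZT0 to ZT12 in 7 of 10 markers and rose in 2, and their summed level ran from 5171 to 11397 normalized counts at ZT0 and from 4339 to 9137 at ZT12, with no marker at 0. In bulk tissue, fewer cells of a type and less RNA per cell cannot be told apart. With the endothelial level in the model, 5 members remained called and Ddit4 and Errfi1 did not. Ddit4 also lost its call without any 1 of NTG_ALF_1, NTG_ALF_107, TG_ALF_5, TG_ALF_16, NTG_TRF_32, NTG_TRF_144 and TG_TRF_104. It was lost too without the 5 libraries that correlated least with the rest, named below. Over all alternatives the Ddit4 estimate went as low as 0.14 and its adjusted p as high as 0.45. Immediate early genes of neuronal activity fell in 8 of 10 members of that list over the same interval, with a median of -0.58, opposite in sign to the glucocorticoid targets, and their part in the result was not tested.

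**Figure D2:**
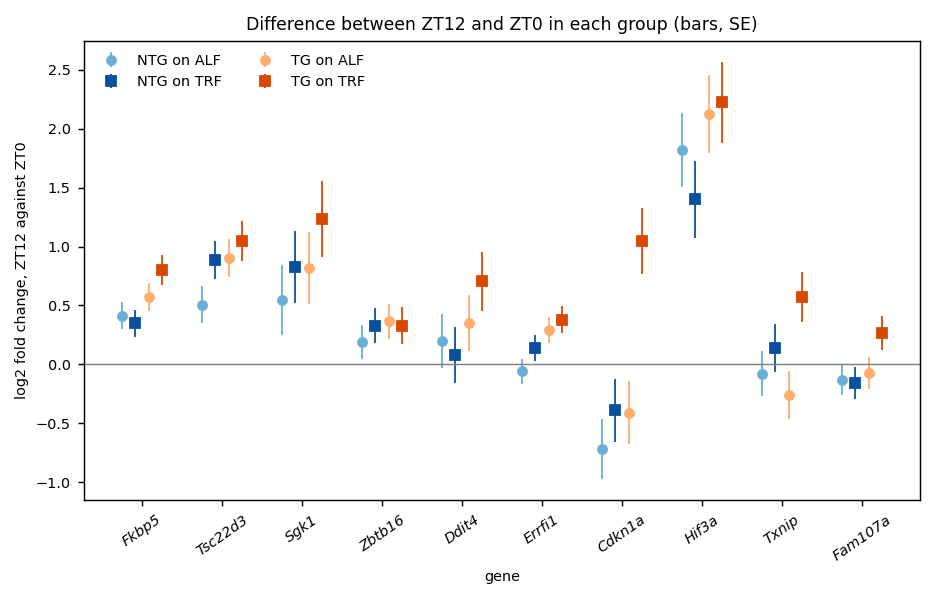
Log2 fold change from ZT0 to ZT12 (vertical axis) of the 10 genes within each group of mice; points are limma estimates and bars their SE. Hif3a lies highest in all 4 groups, and Cdkn1a lies at 1.05 in TG mice on TRF and below 0 in the other 3 groups.

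Within the single groups the rise to ZT12 was called for 2 members in NTG mice on ALF (Fkbp5, Hif3a; 0.94% of all genes rose there), 2 in NTG mice on TRF (Tsc22d3, Hif3a; 0.238%), 3 in TG mice on ALF (Fkbp5, Tsc22d3, Hif3a; 1.01%) and 6 in TG mice on TRF (those 3 with Sgk1, Errfi1 and Cdkn1a; 1.48%). Hif3a was the member called in every group, with differences between 1.40 ± 0.33 and 2.23 ± 0.34. In NTG mice on TRF, Hif3a lost its call without any 1 of NTG_TRF_8, NTG_TRF_10, NTG_TRF_32, NTG_TRF_116, NTG_TRF_142 and NTG_TRF_204 (highest adjusted p 0.106). The TG mice on TRF had the largest estimate for Fkbp5 (0.80 ± 0.12), Tsc22d3 (1.05 ± 0.17) and Sgk1 (1.23 ± 0.32). Cdkn1a rose by 1.05 ± 0.28 in that group (adjusted p = 0.019), while its estimates in the other groups were -0.72 ± 0.26, -0.39 ± 0.27 and -0.41 ± 0.27, none of them called. Whether the change with time depended on feeding was tested over both genotypes, and no gene of the 14260 passed. For Cdkn1a that difference was 0.89 ± 0.27 (unadjusted p = 0.0015, adjusted p = 0.97). Leaving out single animals moved the count in TG mice on TRF between 3 and 7, and it was 3 without TG_TRF_104. Cdkn1a lost its call there with the number series in the model (0.89, adjusted p = 0.06), without the 5 libraries that correlated least with the rest (NTG_ALF_1, NTG_ALF_107, TG_ALF_5, TG_ALF_16 and TG_TRF_104; 0.92, 0.082) and without any 1 of TG_TRF_104, TG_TRF_121, TG_TRF_211 and TG_TRF_321. Errfi1, at 0.38 (adjusted p = 0.048), lost its call with the endothelial level (0.32, 0.105), in ZT0 and ZT12 animals only (0.079) and in 26 of 69 fits that left out 1 animal, and Sgk1 lost its call in 4. In NTG mice on ALF, Fkbp5 lost its call without any 1 of NTG_ALF_1, NTG_ALF_106, NTG_ALF_107, NTG_ALF_120, NTG_ALF_135 and NTG_ALF_322 (highest adjusted p 0.12). It was lost there also with the myelin or endothelial level, with voom weights, without those 5 libraries and in ZT0 and ZT12 animals only (highest 0.17). In TG mice on ALF, Fkbp5 lost its call without those 5 libraries (0.055). Of those 5, TG_TRF_104 was from ZT12, and the others were all from ALF animals at ZT0.

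The feeding schedule was compared next, first over all times. Restricted feeding went with higher levels of 3 members, Fkbp5, Txnip and Fam107a, and lower levels of none, where 0.701% of all genes rose and 0.975% fell. The estimate was positive for 9 of the 10 members, with a median of 0.27, against 0.00 over all genes, and the remaining member, Errfi1, had -0.03 ± 0.05. Fkbp5 was 0.27 ± 0.05 higher (adjusted p = 0.0016), Txnip 0.33 ± 0.09 (0.036) and Fam107a 0.24 ± 0.06 (0.016). Hif3a had a larger estimate, 0.48 ± 0.14, that missed the threshold (0.058). Within TG mice alone, Fkbp5 (0.33) and Fam107a (0.34) were called (0.196% of all genes rose). Both calls were lost with the myelin level in the model, without the 5 libraries of lowest correlation and in ZT0 and ZT12 animals only, where the adjusted p was 0.20 and 0.34 and the estimates 0.40 and 0.37; Fam107a lost its call also with the choroid plexus level and without TG_ALF_5 or TG_TRF_104. Leaving out 1 animal moved the number of genes called there from 77 to between 18 (without TG_TRF_104) and 248 (without TG_TRF_24). Within NTG mice no member was (0.0281% of all genes were called); no gene passed the test of the difference between genotypes.

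The Fkbp5 difference was called without any single animal, with estimates between 0.25 and 0.29, and Fam107a likewise, between 0.22 and 0.26. Txnip lost its call without any of 6 animals (NTG_ALF_1, NTG_ALF_26, NTG_ALF_107, NTG_TRF_118, NTG_TRF_202 and TG_TRF_104), the highest adjusted p being 0.062, with the endothelial level (0.067) or the number series (0.054) in the model, and without the 5 libraries of lowest correlation, where it was 0.27 ± 0.09 (0.16). Myelin genes moved with feeding: none of the 12 markers had a positive estimate, and their median was -0.12. With the myelin level in the model, 1 member, Fkbp5, remained called among 43 genes, and it was also the 1 member called among the 48 animals of ZT0 and ZT12. The estimates of the others were about as large: Fam107a was 0.23 ± 0.06 (adjusted p = 0.067) and Txnip 0.37 ± 0.09 (0.0504) with the myelin level, and 0.29 ± 0.07 (0.055) and 0.40 ± 0.11 (0.084) among the 48 animals. Choroid plexus markers were lower on TRF in all 10 estimates, with a median of -0.44 and none called, and with their level in the model all 3 members remained called. Of 10 astrocyte markers, 2 fell on TRF, Aqp4 by 0.30 and Gfap by 0.20, and none rose; 3 of the 10 estimates were positive and the median was -0.05. Within TG mice 1 astrocyte marker was called, Aldoc, which was 0.23 ± 0.05 higher on TRF. The relation of Fam107a to the mean log2 level of the astrocyte markers within group and time was r = 0.34 in 68 animals and was not called (permutation p adjusted over 50 relations of members with marker levels, 0.169), and the astrocyte level was not entered in the feeding model.

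At ZT12 all 10 members had estimates above 0 for TRF against ALF, but none passed the test across all genes. The median was 0.40, and 8 of the 10 had an unadjusted p under 0.05, where 2.46% of all genes were higher at that level. At an adjusted p under 0.05 there was 1 gene in all, 0.00701%: Etnppl, an astrocyte enzyme of phosphoethanolamine breakdown, which was 0.92 ± 0.16 higher on TRF (0.0066). Ranked by p among 14260 genes, Txnip was number 4, Fkbp5 number 7, Cdkn1a number 10 and Fam107a number 23. The members' median was 0.14 at ZT0, and in TG mice alone it was 0.55 at ZT12, 0.38 at ZT6 and 0.14 at ZT18.

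**Figure D3:**
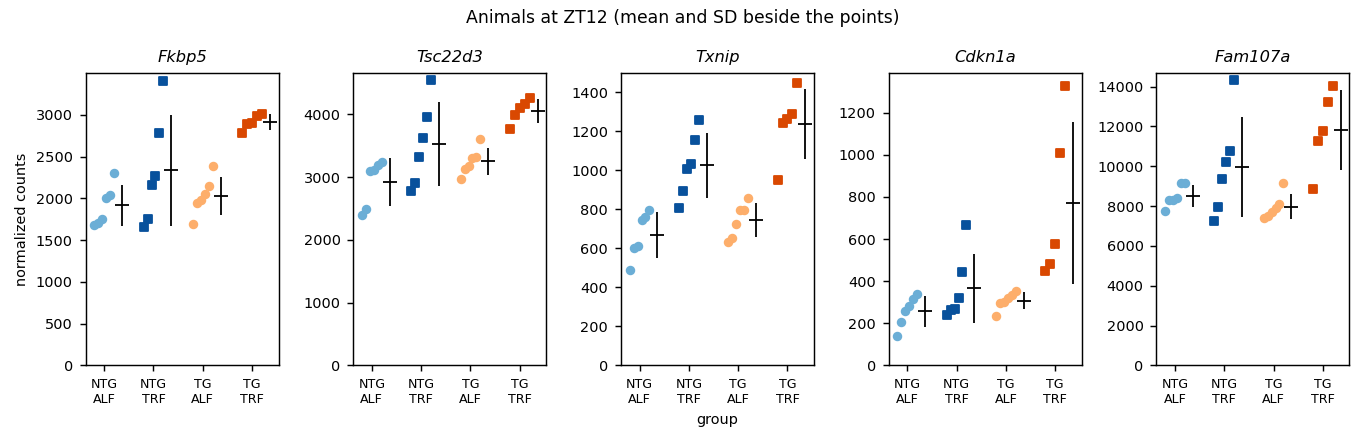
Normalized counts (vertical axis) of 5 genes in each of the 23 animals at ZT12, by group; the bar beside each group is the mean and SD. The 5 TG animals on TRF lie above all 6 TG animals on ALF in Fkbp5, Tsc22d3, Txnip and Cdkn1a, but not in Fam107a.

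Fkbp5 in TG mice at ZT12 ranged from 1695 to 2384 normalized counts on ALF, with a median of 2017 in 6 animals. The 5 TG animals on TRF had 2780, 2896, 2900, 2992 and 3011. These groups did not overlap, and the SD was 92.0 on TRF and 229 on ALF. In NTG mice the lowest, median and highest were 1684, 1880 and 2304 on ALF and 1658, 2211 and 3410 on TRF, and the groups overlapped at the low end. The difference over both genotypes was 0.39 ± 0.09 (adjusted p = 0.056).

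Txnip was the member that separated the feeding groups in both genotypes. In NTG mice the lowest, median and highest were 488, 679 and 795 normalized counts on ALF and 805, 1021 and 1260 on TRF. In TG mice on ALF they were 634, 760 and 859, and the TG animals on TRF had 951, 1243, 1263, 1288 and 1450. Within each genotype every TRF animal exceeded every ALF animal, although the lowest NTG animal on TRF lay below the highest TG animal on ALF. The difference was 0.68 ± 0.15 (adjusted p = 0.055), with 0.62 ± 0.20 in NTG and 0.73 ± 0.21 in TG mice.

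Cdkn1a had the largest estimate of the set at ZT12, 0.84 ± 0.19 (adjusted p = 0.085). The TG animals on TRF had 449, 484, 575, 1010 and 1328 normalized counts, while TG animals on ALF ranged from 235 to 352 with a median of 311. All 5 were above the ALF range, and TG_TRF_121 and TG_TRF_104 carried the highest values. In NTG mice the ranges overlapped, from 138 to 340 on ALF (median 269.6) and from 237 to 666 on TRF (median 295). Without TG_TRF_121 the estimate fell to 0.72.

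Fam107a in TG mice at ZT12 had a lowest, median and highest value of 7393, 7811 and 9137 normalized counts on ALF, and the TRF animals had 8845, 11261, 11743, 13211 and 14002. 1 of the 5 TRF animals fell inside the ALF range. NTG mice ranged from 7761 to 9176 on ALF and from 7239 to 14313 on TRF, and the TRF range extended past the ALF range on both sides. The difference was 0.37 ± 0.10 (adjusted p = 0.19).

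Tsc22d3 also separated the TG feeding groups at ZT12, with 2974 to 3605 normalized counts on ALF and 3765, 3990, 4108, 4158 and 4263 on TRF, but its estimate was smaller, 0.29 ± 0.12 (adjusted p = 0.91). In TG mice 4 members had every TRF animal above every ALF animal, where 0.358% of all genes did, and in NTG mice 1 did, Txnip, where 0.0771% of all genes did. Hif3a (0.58 ± 0.24), Sgk1 (0.48 ± 0.22) and Ddit4 (0.41 ± 0.17) had estimates of similar size or larger with wider errors and overlapping groups. Zbtb16 at 0.14 ± 0.11 and Errfi1 at 0.06 ± 0.08 had the smallest.

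With the animals' number series in the model, 18 genes were called at ZT12 and 4 of them were members: Fkbp5 (0.41 ± 0.09, adjusted p = 0.023), Cdkn1a (0.96 ± 0.18, 0.011), Txnip (0.70 ± 0.16, 0.032) and Fam107a (0.45 ± 0.10, 0.021). Leaving out single animals gave 0 to 3 members called, the most without TG_TRF_126. No endothelial, myelin, astrocyte, choroid plexus or neuronal marker was called at ZT12. Immediate early genes had 10 of 10 positive estimates there, with a median of 0.22 and none called, and their level was not entered in the feeding model. Within group and time, in 68 animals, the mean log2 level of the immediate early genes went with Errfi1, at Pearson's r = 0.50 (permutation p adjusted over the 50 relations, 0.0325) and Spearman's rho = 0.41 (0.081), and r was 0.40 without the 2 animals farthest from the median. With Tsc22d3 it was called by rho, 0.48 (adjusted p = 0.0245), but not by r, 0.38 (0.181; 0.45 without the 2 farthest). None of the other relations of members with immediate early gene, astrocyte, myelin, endothelial or choroid plexus levels was called.

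**Figure D4:**
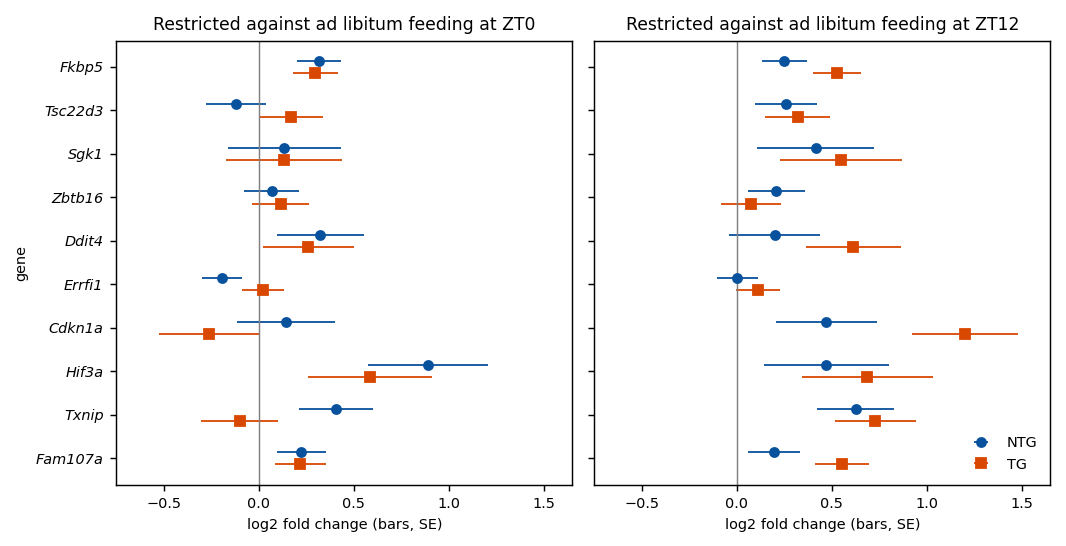
Log2 fold change of TRF against ALF (horizontal axis) for the 10 genes at ZT0 and at ZT12, in NTG (circles) and TG (squares) mice; bars are SE. At ZT12 the estimates run from 0.00 (Errfi1 in NTG mice) upwards, and Cdkn1a in TG mice is highest at 1.20; at ZT0 the estimates fall on both sides of 0.

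The genotypes were then set side by side at ZT12. In TG mice the estimates for TRF against ALF were 0.53 ± 0.12 for Fkbp5, 1.20 ± 0.28 for Cdkn1a, 0.55 ± 0.14 for Fam107a and 0.61 ± 0.25 for Ddit4. In NTG mice they were 0.25 ± 0.12, 0.47 ± 0.27, 0.19 ± 0.14 and 0.20 ± 0.24 for the same genes. None was called in either genotype. With the number series in the model, Cdkn1a was called in TG mice (1.30 ± 0.25, adjusted p = 0.0198), as 1 of 7 genes. The difference between genotypes was not called for any member or any other gene, and for Cdkn1a it was 0.73 ± 0.39 (unadjusted p = 0.064) and for Fam107a 0.36 ± 0.20 (0.071), which does not show that TG and NTG mice respond alike.

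At ZT0, 3 h after the end of the meal window, none of the members was called between the feeding groups, where 0.0491% of all genes were. Fkbp5 differed by 0.31 ± 0.08 (adjusted p = 0.087) and Hif3a by 0.74 ± 0.23 (0.13). The Hif3a values overlapped, from 60.5 to 393 normalized counts in NTG and 76.7 to 247 in TG mice on ALF, and from 139 to 678 and 105 to 436 on TRF. The Fkbp5 estimate at ZT0 was near that at ZT12, and the difference between them was 0.08 ± 0.12. Cdkn1a and Txnip had smaller estimates at ZT0, -0.06 ± 0.18 and 0.15 ± 0.14, and their differences from ZT12 (0.89 ± 0.27 and 0.52 ± 0.20, adjusted p = 0.97 each) were not called.

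The remaining times had 4 TG animals per feeding group at ZT6 and 3 at ZT18, and no gene was called at either (1147 and 225 genes had an unadjusted p under 0.05). Hif3a at ZT6 was 120.6, 158, 164 and 201 normalized counts on ALF and 208, 215, 237 and 283 on TRF, with every TRF animal above every ALF animal, as in 1.61% of all genes. Fkbp5 at ZT18 was 1749, 1813 and 1823 on ALF and 2002, 2003 and 2160 on TRF, likewise separate, as in 6% of all genes. NTG mice had 1 or 2 animals per group at these times. At ZT6 every NTG animal on TRF lay below the 1 on ALF in 6 members (Tsc22d3, Sgk1, Zbtb16, Errfi1, Hif3a and Txnip; 24.6% of all genes) and above it in 1 (Fam107a; 23%). At ZT18 those on TRF lay below those on ALF in 3 members (Tsc22d3, Zbtb16 and Hif3a; 19.5%) and above in 1 (Sgk1; 19.8%).

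Genotype was compared over both feeding schedules. No member differed between TG and NTG mice over all times, where 0.449% of all genes did, and estimates ran from -0.03 ± 0.06 (Zbtb16) to 0.20 ± 0.13 (Cdkn1a). At ZT12 none was called either, where 0.154% of all genes were. The members nearest to the threshold were Cdkn1a, 0.67 ± 0.19 higher in TG mice (adjusted p = 0.24), Fkbp5, 0.23 ± 0.09 (0.42), and Errfi1, 0.21 ± 0.08 (0.43).

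**Figure D5:**
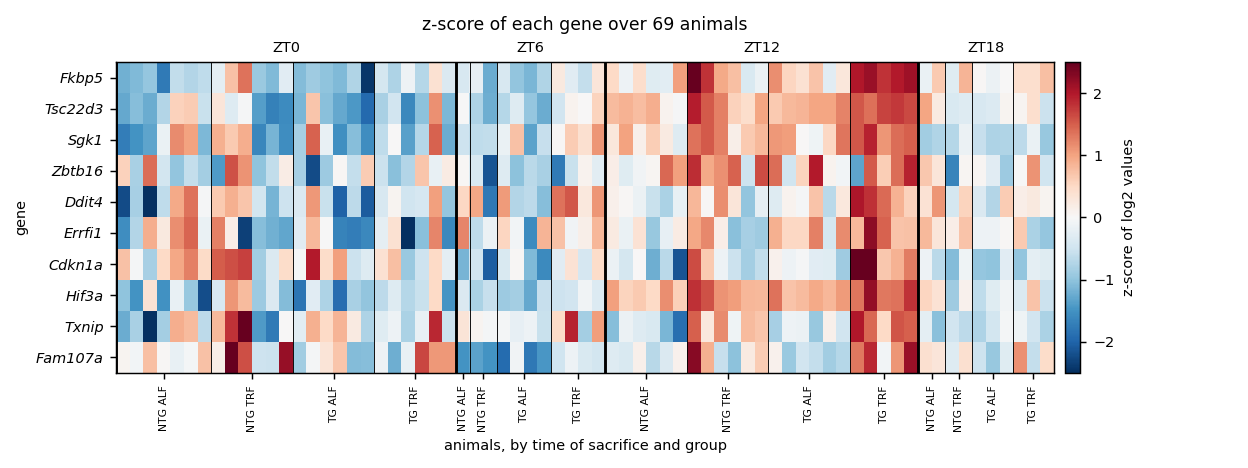
Each column is 1 of 69 animals, ordered by time of sacrifice and group, and each row a gene; colour is the z-score of its log2 value over all animals (red high, blue low). The ZT12 columns of TG mice on TRF are red in most rows. Those of mice on ALF are mostly red in Hif3a, Tsc22d3 and Sgk1 and mostly blue in Cdkn1a, Txnip and Fam107a. Single ZT0 columns are red in Tsc22d3 and Sgk1.

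The members were then compared with each other across animals. Over all 69 animals, all 45 pairs of members were positively correlated on the log2 scale, from 0.029 (Zbtb16 with Ddit4) to 0.84 (Tsc22d3 with Sgk1), with a median of 0.44. These values include the shared change with time. Once the mean of each group and time was removed, Fkbp5 was compared with the other 9 members in 68 animals, with permutation p-values adjusted over the 9 relations. The correlation was strongest with Ddit4, at Pearson's r = 0.51 (adjusted p = 0.00036) and Spearman's rho = 0.60 (9e-05, the smallest the permutations allow), and r stayed at 0.51 without the 2 animals farthest from the median. It was 0.49 with Cdkn1a, 0.47 with Fam107a, 0.42 with Hif3a and with Tsc22d3, 0.41 with Txnip, 0.37 with Sgk1 and 0.33 with Errfi1, each called by Pearson's r. Zbtb16 was not called (r = 0.26, adjusted p = 0.075), and for Txnip rho was 0.22 (adjusted p = 0.127). How many of all genes correlate this strongly with Fkbp5 was not computed. These relations are therefore not shown to be particular to the members.

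At ZT0, Sgk1 was high in single animals of every group. It was 6456 and 5953 normalized counts in NTG_ALF_134 and NTG_ALF_136, 5722, 5629 and 5107 in NTG_TRF_202, NTG_TRF_116 and NTG_TRF_118, 7337 in TG_ALF_127 and 7365 in TG_TRF_323, while the other 18 animals were at 3800 or below. These values lie within the range of ZT12 animals. Tsc22d3 was 2181 to 3480 in the same 7 animals. Fkbp5 was not raised alike in them: TG_ALF_127 had 1470 normalized counts, inside the range of its group, and NTG_TRF_202 had 2500, the highest of its own.

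The genes most like the members over the 69 animals were found by correlating every other gene with the mean z-score of the 10. Klf15, a transcription factor of the Krüppel-like family, had the highest r, 0.86, followed by Arrdc2 (0.86), Gm19439 (0.83), Map3k6 (0.83), Arl4d (0.82), Plin4 (0.82), Nfkbia (0.81), Klf9 (0.75), Gjb6 (0.75) and Plekhf1 (0.74). Of these, 8 were on the gene lists used here, which include 22 other glucocorticoid-responsive genes, 21 of them measured. The lists were chosen with earlier results of these data known, and the correlations include the shared change with time. The overlap is therefore a description and no independent support. For the single members, the nearest gene was Plin4 for Fkbp5 (0.84) and for Hif3a (0.84), Klf15 for Tsc22d3 (0.88), Nfkbia for Sgk1 (0.92), Angptl4 for Cdkn1a (0.69) and Etnppl for Fam107a (0.75).

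The other glucocorticoid-responsive genes were counted in the same comparisons. From ZT0 to ZT12, 11 of 21 rose and 1 fell, where 13.3% of all genes rose and 12.8% fell. The 1 that fell was Dusp1, a phosphatase that is also an immediate early gene, by 0.47 on the log2 scale. Klf15 rose by 0.54 ± 0.06, Plin4, a lipid droplet protein, by 1.75 ± 0.21, and Klf9 by 0.26 ± 0.03. Over all times 3 were higher on TRF, where 0.701% of all genes were. These were Sult1a1 by 0.58 ± 0.09 (adjusted p = 0.00026), the astrocyte connexin Gjb6 by 0.19 ± 0.05 (0.043) and Angptl4, a lipoprotein lipase inhibitor, by 0.54 ± 0.15 (0.046). At ZT12 20 of 21 estimates for feeding were positive, as were 49.2% over all genes. Of the 21, 14 had an unadjusted p under 0.05, where 4.79% of all genes did. None was called, and their median was 0.31.

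Angptl4 at ZT12 averaged 62.3 ± 33.3 normalized counts in NTG mice on ALF, 99.0 ± 33.6 in NTG mice on TRF, 75.5 ± 24.6 in TG mice on ALF and 209.5 ± 86.3 in TG mice on TRF. Plin4 averaged 476 ± 232.2, 633 ± 407, 644 ± 184 and 1604 ± 618 in the same order. In both genes the TG mice on TRF lay above all TG mice on ALF, as for 4 of the members and 0.358% of all genes. Both were named after their values were seen, and separation was not counted over the rest of their list.

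Among the receptors and the proteins that handle the hormone or the receptor, more genes fell than rose from ZT0 to ZT12. Of 11 such genes, 6 fell and 1 rose, where 12.8% of all genes fell and 13.3% rose. Nr3c1, the glucocorticoid receptor, fell by 0.23 on the log2 scale, and the chaperone partners Stip1, Ptges3 and Fkbp4 fell by 0.38, 0.23 and 0.19. Hsd11b1, which regenerates active hormone inside cells, rose by 0.24 ± 0.07 (adjusted p = 0.012). None of the 11 was called for feeding over all times, where 0.701% of all genes rose and 0.975% fell.

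Close relatives of the members were counted as well. Of 12 measured relatives, from the Fkbp, Tsc22d, Sgk, Ddit4, Cdkn1, Arrdc and other families, 8 had positive estimates for feeding at ZT12, with a median of 0.05, and 4 did over all times, with a median of -0.04; none was called, where 0.701% of all genes rose over all times and 0.00701% were called at ZT12. From ZT0 to ZT12, 2 rose, Tsc22d1 and Arrdc4, and 3 fell, Cdkn1b, Ddit4l and Fkbp4, where 13.3% of all genes rose and 12.8% fell. Lists tied to other inducers of the same genes were counted too. For feeding at ZT12, where 1 gene in all was called, 49.2% of all genes had positive estimates. They were positive for 5 of 11 hypoxia-induced, 5 of 9 p53-induced and 9 of 9 FoxO-induced genes, with medians of -0.03, 0.03 and 0.17. The members and these lists were chosen with earlier results of these data known. The part of these inducers in the members' levels was not tested.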

How the data were processed

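Hippocampal poly-A RNA was sequenced as paired 150-base reads, per the labels' protocols. The deposited values are counts normalized by the authors with DESeq2 after HISAT2 alignment to GRCm38 and featureCounts. This follows the submitters' processing notes, which name no order or version. The unit is treated as a signal deposited by the authors, so the main models are not count models. The alternative with voom weights used counts inferred from the step between values. Totals per library, inferred from the step between values, were 27863261 to 47093814 reads, and the lowest gene mean was 40.9. Libraries 232 and 232R were averaged as 1 animal, a reading the labels do not state. Values were taken as log2(value + 1) and fitted with limma 3.58.1 (R 4.3.3) with trend and robust shrinkage over 14260 genes: 4 group means plus time for comparisons over times, and 16 group-by-time means for the rest. The fit was checked on simulated data. Feeding at ZT12 or ZT0 within each genotype and its difference were added after values were seen. The members and lists were chosen with earlier results of these data known. Named genes are all members, up to 4 called genes per list of smallest p, and the genes most correlated with the members; Dusp1, Angptl4 and Plin4 levels and Hsd11b1, Tsc22d1, Arrdc4 and Ddit4l were named after their values were seen. Relations within group and time used 100000 permutations within groups. Alternatives were a pseudocount of 10, a mean of at least 200, covariates (choroid plexus, myelin, endothelium, Xist, number series), voom weights, library 232 alone, leaving out each animal, and, chosen after seeing the data, leaving out the 5 libraries of lowest correlation and using ZT0 and ZT12 only.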

Additional observations from a re-analysis of the deposited data

Results flagged for a closer look

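Among 100 sets of 4 to 7 animals of 1 group and time, 7 held a value whose gap to its nearest neighbour was large for the range of the set, and chance gives about 1 in 20. At ZT0, TG_TRF_323 had 7365.0 normalized counts of Sgk1, against 2057 to 3800 in the other animals of its group, 3479.9 of Tsc22d3 (others 1438 to 2076) and 1402.7 of Txnip (others 663 to 801). TG_ALF_127 at ZT0 had 7336.8 normalized counts of Sgk1 (others 1892 to 3482) and 3021.6 of Tsc22d3 (others 1296 to 1722). TG_ALF_5 had the lowest Fkbp5 of its group at ZT0, 1020.6 normalized counts, against 1393 to 1513, and it was 1 of the 5 libraries that correlated least with the rest. At ZT6, TG_ALF_304 had 2065.4 normalized counts of Ddit4, against 1055 to 1199 in the other 3.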

How the results depend on the processing

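Fkbp5 kept its calls for feeding over all times and for ZT12 against ZT0 under every alternative run. Members called fell, or rose from 0, as follows; other rises were of 1 member. With the number series, 1 was called for ZT12 against ZT6 (5 otherwise), 1 against ZT18 (3 otherwise) and 4 for feeding at ZT12 (0 otherwise). Feeding at ZT12 within TG mice had 1 with that series, Cdkn1a (0 otherwise). Over the 4 times the count stayed at 7 with that series, but Cdkn1a lost its call and Errfi1 gained one. Feeding over all times had 1 with the myelin level (43 genes in all) and 1 in ZT0 and ZT12 animals only (61 genes), against 3 (239 genes); it had 2 with the endothelial level (85 genes), 2 with the number series (194) and 2 without the 5 libraries of lowest correlation (55). Feeding within TG mice, with 2 members called, had 1 with the choroid plexus level, 0 with the myelin level, 0 without the 5 libraries and 0 in ZT0 and ZT12 animals only. ZT12 against ZT0 in NTG mice on ALF, with 2, had 1 with the myelin or endothelial level, with voom weights, without the 5 libraries or in ZT0 and ZT12 animals only. Without the 5 libraries, ZT12 against ZT0 had 6 (7 otherwise), and 2 in TG mice on ALF (3 otherwise); with the endothelial level it had 5. In TG mice on TRF, with 6, it had 5 with the endothelial level, with the number series, without the 5 libraries or in ZT0 and ZT12 animals only. Leaving out each animal gave 6 to 7 members for ZT12 against ZT0 (1 to 3 in NTG on ALF, 1 to 2 in NTG on TRF, 3 to 4 in TG on ALF, 3 to 7 in TG on TRF), 5 to 6 against ZT6, 3 to 4 against ZT18, 7 to 9 over the 4 times, 2 to 4 for feeding over all times, 1 to 2 within TG mice, 0 to 3 at ZT12 and 0 to 1 at ZT0.

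Uncalled estimates that changed sign were these. With the number series, Cdkn1a was -0.30 for ZT12 against ZT6 and -0.36 against ZT18, and Errfi1 was 0.016 for feeding over all times. With the endothelial level, Ddit4 was -0.099 for ZT12 against ZT18. In ZT0 and ZT12 animals only, Tsc22d3 was 0.058 for feeding within NTG mice. Without the 5 libraries of lowest correlation, Ddit4 was -0.025 for feeding within NTG mice, -0.19 for ZT12 against ZT0 in NTG mice on ALF, and -0.050, -0.035 and -0.066 for feeding at ZT0 in all, TG and NTG mice, and feeding at ZT0 was -0.11 for Tsc22d3 and -0.15 for Sgk1. Causes beyond the fewer samples or added term were not tested. No paired analysis was possible because the groups compared share no replicate numbers that pair animals. With 1 to 4 animals per group, ZT6 and ZT18 limit what feeding comparisons there can show.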
